A study of Mus musculus with 6 samples.

Results

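The NRF2 antioxidant genes are 10 genes of the defence against oxidants: *Nfe2l2*, which encodes the transcription factor NRF2, its inhibitor *Keap1*, and the genes *Gclc*, *Gclm*, *Gsr*, *Txnrd1*, *Srxn1*, *Nqo1*, *Osgin1* and *Cat*. They were taken by name from the 24346 genes for which the authors deposited FPKM (fragments per kilobase of transcript, scaled to the fragments mapped in the library) in each liver, and all 10 were found. Whole livers of 6 male C57/BL6 mice were sequenced, 3 of genotype "wt" in the labels, which the study's methods give as *med23* f/f (the controls), and 3 of genotype "med23 ko", given as *med23* Δli (called Δli-labelled livers). Every mouse was 8 weeks old, had received an intraperitoneal injection of 0.6 μl CCl4 per g body weight in sunflower oil, and was killed 24 hours later. *Med23* is floxed in both groups and encodes a subunit of the Mediator complex. In the *med23* Δli line *Albumin*-cre deletes it in hepatocytes, and it remains in endothelial, Kupffer, stellate and other cells. No untreated liver was analysed here, and the values below therefore compare the groups after CCl4 and not CCl4 with its absence.

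NRF2 is a leucine-zipper transcription factor that is controlled mainly as a protein. KEAP1 binds it and hands it to a CUL3 ubiquitin ligase for degradation, and oxidants or electrophiles that modify cysteines of KEAP1 let NRF2 accumulate, pair with a small MAF protein and bind antioxidant response elements. Its known targets make and recycle glutathione, keep thioredoxin and peroxiredoxins reduced, detoxify quinones and supply NADPH. CCl4 is converted by cytochrome P450 in pericentral hepatocytes into a radical that starts lipid peroxidation.

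Sequence upstream of the genes was searched for the core of the antioxidant response element. The search covered the 250 bases before each RefSeq start site (GRCm38.p6, the assembly of mm10) for TGACNNNGC on either strand. Of 32851 promoters in the RefSeq set, 3338 (10.2%) hold a match. Of the 10 genes, 8 have a promoter in the set (not *Gclc* and *Gsr*), with 10 start sites between them, and 3 start sites of 3 genes match: *Nfe2l2*, *Gclm* and 1 of the 3 start sites of *Txnrd1*. A match is a run of letters and not a site shown to be bound, and its absence says only that these letters are not in the window. The matching stretches of *Gclm* and *Txnrd1* are shown with those of *Nqo1* and *Cat*, the genes of the group that moved furthest down and up and have no match in this window. Each is the part of the window outside annotated exons, read 5′ to 3′ on the strand of the gene, with the match in capitals. The stretches are chr3:122245307-122245556 on the plus strand for *Gclm*, chr10:82859009-82859178 on the plus strand for *Txnrd1*, chr8:107403207-107403455 on the minus strand for *Nqo1* and chr2:103485161-103485403 on the minus strand for *Cat*.
Gclm: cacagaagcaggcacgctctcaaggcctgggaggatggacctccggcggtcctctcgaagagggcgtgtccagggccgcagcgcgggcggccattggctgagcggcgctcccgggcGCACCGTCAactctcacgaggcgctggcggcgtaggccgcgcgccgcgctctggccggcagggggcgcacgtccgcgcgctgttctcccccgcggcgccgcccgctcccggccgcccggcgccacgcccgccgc
Txnrd1: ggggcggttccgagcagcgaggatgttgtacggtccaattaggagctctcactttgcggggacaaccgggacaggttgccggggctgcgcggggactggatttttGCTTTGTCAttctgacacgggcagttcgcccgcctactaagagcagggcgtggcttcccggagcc
Nqo1: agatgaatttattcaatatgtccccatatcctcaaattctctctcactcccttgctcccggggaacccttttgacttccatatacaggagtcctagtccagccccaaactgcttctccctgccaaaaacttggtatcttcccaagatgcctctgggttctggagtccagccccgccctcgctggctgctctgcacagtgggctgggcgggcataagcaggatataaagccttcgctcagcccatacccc
Cat: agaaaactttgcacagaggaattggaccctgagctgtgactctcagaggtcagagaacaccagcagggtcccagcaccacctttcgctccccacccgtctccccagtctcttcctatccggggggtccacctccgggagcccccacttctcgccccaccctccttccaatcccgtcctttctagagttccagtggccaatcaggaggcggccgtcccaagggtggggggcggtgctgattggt
In *Gclm* the match covers bases 134 to 126 before the start site, and in *Txnrd1* bases 92 to 84, both read on the opposite strand. The *Txnrd1* stretch ends 28 bases before its start site. The match of *Nfe2l2*, at bases 240 to 232 before its start site, lies in an annotated exon and is not printed.

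Facts of the whole data set bear on these values. *Med23* itself did not tell the groups apart, at 2.97 to 4.14 FPKM in the controls and 2.91 to 3.40 FPKM in the Δli-labelled livers (log2 fold change −0.11, adjusted p = 0.686 from limma), so the livers are named by their labels and every direction rests on them. A gene's FPKM in whole liver includes the cells that keep *Med23* and is not limited to the deleted exons. The albumin gene *Alb*, which marks hepatocytes, lay at 12620 to 22380 FPKM. Control replicate 2 was less like the libraries labelled *med23* Δli than the other controls were: its correlation with them, over log2 values of the 11956 genes tested, was 0.922 to 0.924, against 0.943 to 0.951. Among the controls the correlation was 0.969 between replicates 1 and 2, 0.966 between 1 and 3 and 0.953 between 2 and 3. *med23* Δli replicate 2 held adipocyte transcripts, with the 6 markers summing to 36.2 FPKM there and to at most 0.565 FPKM in any other liver.

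Of the 10 genes, 1 was higher in the Δli-labelled livers, 3 were lower and 6 were not called. *Cat* rose 2.60-fold, and *Nqo1*, *Gclc* and *Gsr* fell 4.59-fold, 2.53-fold and 1.62-fold. These folds are on the log2(FPKM + 0.1) scale, which understates the change of low genes, and the call is an adjusted p under 0.05 in limma with Benjamini-Hochberg adjustment over all 11956 genes tested. All 10 passed the filter of a mean of 0.5 FPKM. Among all genes tested, 11.6% were called higher and 9.48% lower, 21.1% in all. *Cat*, *Nqo1* and *Gclc* also changed by more than 2-fold, as did 4.45% (higher) and 3.45% (lower) of all genes tested. The 3 values of each group did not overlap in 5 of the 10 genes, close to the 43.7% of all genes tested. The median log2 fold change of the 10 genes was −0.24, against 0.02 for all genes tested.

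**Figure D1:**
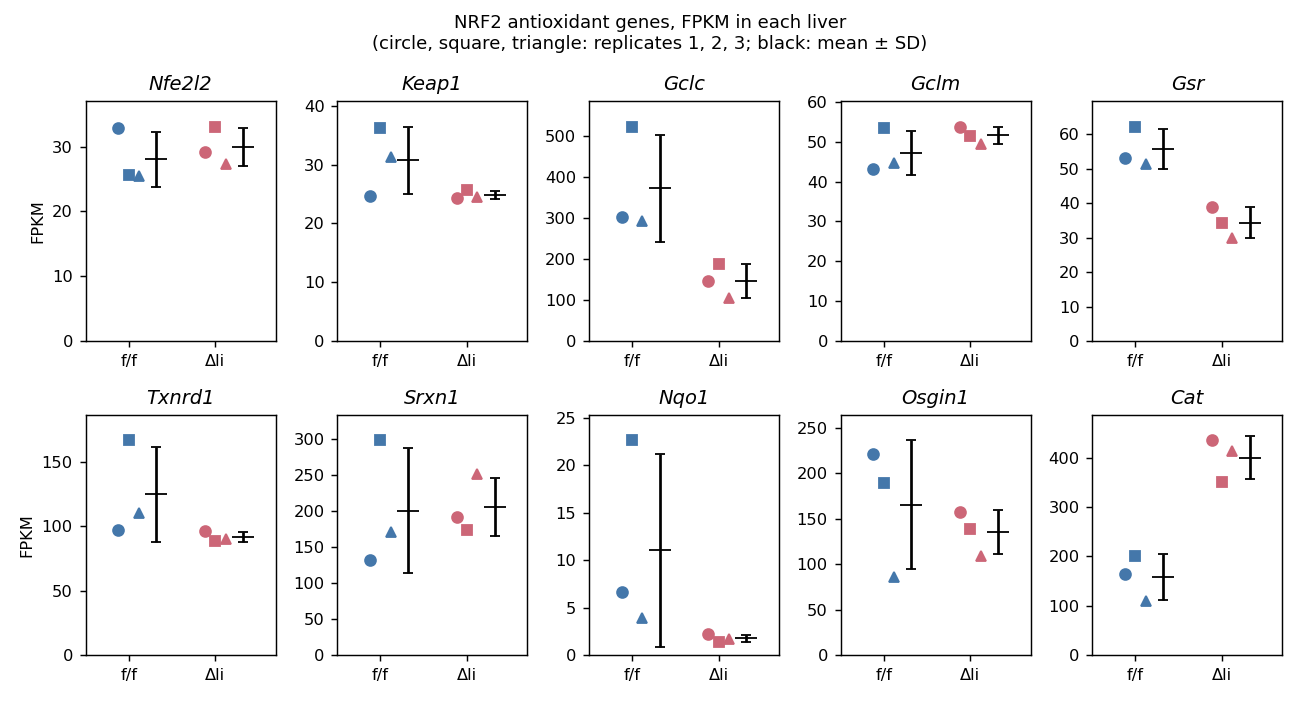
FPKM of the 10 NRF2 antioxidant genes (vertical axes, each from 0) in the 3 *med23* f/f livers (blue) and the 3 Δli-labelled livers (red), with the mean ± SD of each group in black. *Cat* lies at 109 to 200 FPKM in controls and at 351 to 435 FPKM in Δli-labelled livers. *Gclc*, *Gsr*, *Txnrd1* and *Nqo1* lie lower without overlap, and the square of control replicate 2 tops the controls in 8 of the 10 panels.

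The regulator and its inhibitor were examined first. *Nfe2l2* (ENSMUSG00000015839.6; GRCm38, chromosome 2, minus strand, 75675513 to 75704641) had 32.9, 25.6 and 25.5 FPKM in the controls and 29.1, 33.1 and 27.4 FPKM in the Δli-labelled livers. The groups overlapped, with the highest value of each close to the other. On the log2 scale the difference was 0.10 (95% confidence interval −0.25 to 0.45, adjusted p = 0.669, limma). *Keap1* (ENSMUSG00000003308.15; chromosome 9, minus strand, 21229730 to 21239361) had 24.7, 36.1 and 31.3 FPKM in the controls against 24.4, 25.6 and 24.4 FPKM. Its values labelled *med23* Δli were tight, at 24.8 ± 0.708 FPKM (SD, n = 3), and control replicate 1 lay among them. *Keap1* differed by −0.29 on the log2 scale (95% confidence interval −0.66 to 0.08, adjusted p = 0.220, limma), and by −0.17 without control replicate 2. Transcript levels of this pair do not measure the amount of NRF2 protein.

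*Gclc* and *Gclm* encode the catalytic and the modifier subunit of glutamate-cysteine ligase, the enzyme of the rate-limiting step of glutathione synthesis. *Gclc* (ENSMUSG00000032350.9; chromosome 9, plus strand, 77754535 to 77794485) had 302, 524 and 292 FPKM in the controls. It had 147, 187 and 104 FPKM in the Δli-labelled livers, and every one of these lay below every control. The means were 373 ± 131 and 146 ± 41.5 FPKM (SD over 3 livers), and *Gclc* differed by −1.34 on the log2 scale (standard error 0.28, adjusted p = 0.0175, limma). Without control replicate 2, the highest liver, the log2 fold change was −1.07 and still called (adjusted p = 0.0324, limma). The call was lost without *med23* Δli replicate 1 (adjusted p = 0.0585, limma) and without replicate 3 of that group (0.0615, limma), and over all alternatives the adjusted p lay between 0.00869 and 0.0615.

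*Gclm* (ENSMUSG00000028124.15; chromosome 3, plus strand, 122245557 to 122270732) was not called. It had 43.2, 53.5 and 44.7 FPKM in the controls and 53.8, 51.5 and 49.5 FPKM in the Δli-labelled livers, with control replicate 2 inside the range of the other group. Its log2 fold change was 0.14 (95% confidence interval −0.17 to 0.44, adjusted p = 0.478, limma). A pseudogene, *Gm6061*, lies within *Gclm* on the same strand. The subunits were also compared within each liver, where the scale of the library cancels. *Gclc* stood 7.00, 9.80 and 6.54 times above *Gclm* in the controls and 2.73, 3.64 and 2.10 times above it in the Δli-labelled livers. The log2 ratio of *Gclm* to *Gclc* was −2.93 ± 0.313 in controls and −1.46 ± 0.395 in Δli-labelled livers (SD, n = 3 each), 1.48 apart. The groups did not overlap, with p = 0.1 in an exact permutation test (two-sided), the smallest that 3 livers against 3 allow. With each liver left out in turn the difference ranged from 1.28 to 1.68. The plot of the subunits shows the livers spread along the *Gclc* axis and level on the *Gclm* axis.

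**Figure D2:**
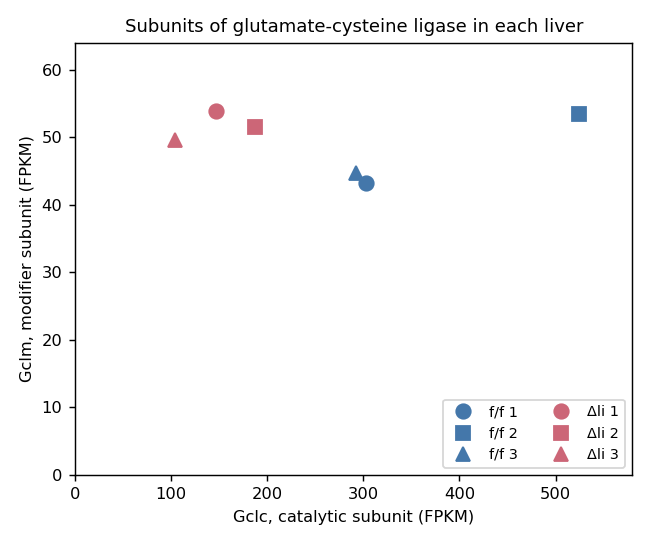
*Gclc* (horizontal axis, FPKM) against *Gclm* (vertical axis, FPKM), both from 0, in each of the 6 livers, with *med23* f/f in blue and *med23* Δli in red and a symbol per replicate. *Gclm* lies between 43.2 and 53.8 FPKM in every liver, whereas *Gclc* is at most 187 FPKM in the red points and at least 292 FPKM in the blue ones.

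3 genes encode reductases of oxidised thiols. *Gsr*, glutathione reductase, returns glutathione disulfide to glutathione with NADPH (ENSMUSG00000031584.16; chromosome 8, plus strand, 33652523 to 33698163). It had 53.1, 62.2 and 51.4 FPKM in the controls and 38.9, 34.2 and 29.9 FPKM in the Δli-labelled livers. The groups were separate and each was tight, with means of 55.5 ± 5.80 and 34.3 ± 4.53 FPKM (SD, n = 3 each). *Gsr* thus fell by 0.70 on the log2 scale (standard error 0.15, adjusted p = 0.0177, limma), and by 0.61 without control replicate 2 (adjusted p = 0.0389, limma). It was no longer called without *med23* Δli replicate 2 (0.0682, limma) or replicate 3 (0.0660, limma), with a lowest adjusted p of 0.00918 over the alternatives.

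*Txnrd1*, the cytosolic thioredoxin reductase (ENSMUSG00000020250.10; chromosome 10, plus strand, 82833951 to 82897712), had 97.2, 167 and 110 FPKM in the controls and 96.1, 88.2 and 90.4 FPKM in the Δli-labelled livers. Every liver of the latter group lay below every control, but control replicate 1 was only just above them. For *Txnrd1* the difference was −0.41 on the log2 scale (95% confidence interval −0.87 to 0.06, adjusted p = 0.182, limma). Without control replicate 2 it was −0.18 (adjusted p = 0.372, limma; 0.0809 to 0.372 over the alternatives). Another gene, *Eid3*, overlaps *Txnrd1* on the same strand. *Srxn1*, sulfiredoxin, restores overoxidised peroxiredoxins (ENSMUSG00000032802.8; chromosome 2, plus strand, 152105516 to 152111376). Its values were 133, 299 and 172 FPKM in the controls and 192, 174 and 251 FPKM in the Δli-labelled livers, so that the controls spanned the other group. Its log2 fold change of 0.10 had a 95% confidence interval from −0.57 to 0.78 (adjusted p = 0.828, limma), and the sign changed with the setting, from −0.16 without control replicate 1 to 0.43 without control replicate 2.

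*Nqo1*, NAD(P)H quinone dehydrogenase, is a widely used readout of NRF2 activity (ENSMUSG00000003849.8; chromosome 8, minus strand, 107388225 to 107403206). It was the lowest of the 10 genes, at 6.59, 22.6 and 3.85 FPKM in the controls and 2.17, 1.40 and 1.72 FPKM in the Δli-labelled livers. The groups did not overlap, although the controls ranged widely around control replicate 2. The means were 11.02 ± 10.1 and 1.77 ± 0.383 FPKM (SD over 3 livers), and the log2 fold change was −2.20 (standard error 0.56, adjusted p = 0.0305, limma). Without control replicate 2 the log2 fold change was −1.48 with an adjusted p of 0.0200 (limma). The call was lost without control replicate 1 (0.0600, limma), without any of the 3 Δli-labelled livers (0.0700 without replicate 1, 0.0921 without replicate 2 and 0.0920 without replicate 3, limma), with robust eBayes (0.0565, limma) and without the filter on low values (0.0663, limma). The lowest adjusted p over the alternatives was 0.00828 (limma).

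*Osgin1*, an oxidative stress-induced growth inhibitor (ENSMUSG00000074063.10; chromosome 8, plus strand, 119434124 to 119446256), had 221, 190 and 85.9 FPKM in the controls and 157, 139 and 109 FPKM in the Δli-labelled livers. Control replicate 3 lay below the whole of the other group and the other controls above it. *Osgin1* differed by −0.20 on the log2 scale (95% confidence interval −0.98 to 0.58, adjusted p = 0.699, limma). It became 0.065 without control replicate 1 and −0.62 without control replicate 3, where it was called (adjusted p = 0.0473, limma; up to 0.949 over the alternatives).

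*Cat*, catalase, breaks down hydrogen peroxide in peroxisomes (ENSMUSG00000027187.10; chromosome 2, minus strand, 103453849 to 103485160). It had 164, 200 and 109 FPKM in the controls and 435, 351 and 413 FPKM in the Δli-labelled livers. All livers of that group lay above all controls, and the gap between the groups exceeded the range within either. The means were 158 ± 45.9 and 399 ± 43.7 FPKM (SD over 3 livers), and *Cat* rose by 1.38 on the log2 scale (standard error 0.23, adjusted p = 0.00790, limma). *Cat* was called under every alternative, with an adjusted p between 0.00487 and 0.0380 (limma) and a log2 fold change between 1.13 and 1.57, the lowest without control replicate 3. In exact permutation tests (two-sided) *Cat*, *Nqo1*, *Gclc*, *Gsr* and *Txnrd1* each had p = 0.1, the smallest possible.

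**Figure D3:**
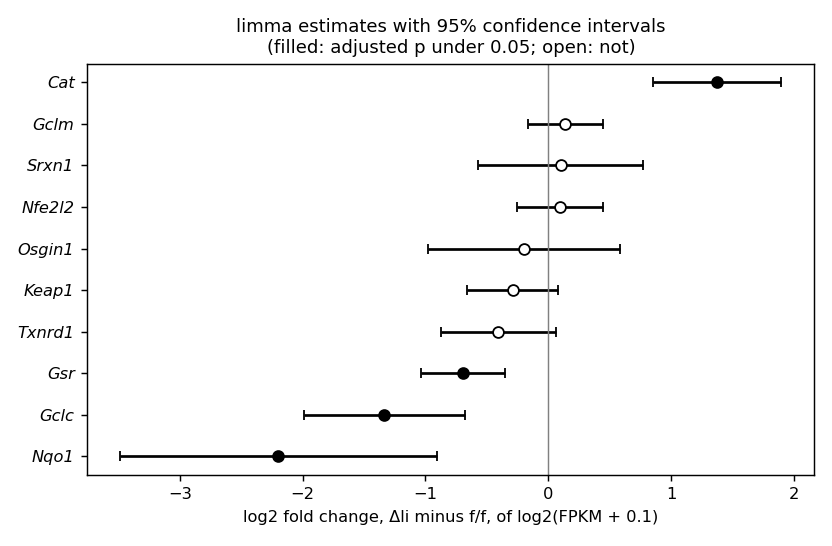
Log2 fold change (horizontal axis, *med23* Δli minus *med23* f/f on the log2(FPKM + 0.1) scale) of each of the 10 genes with its 95% confidence interval from limma. Filled points have an adjusted p under 0.05: *Cat* at 1.38, *Gsr* at −0.70, *Gclc* at −1.34 and *Nqo1* at −2.20, while the intervals of the 6 open points cross 0.

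The order of the levels, which FPKM allows because it is per length, differed between the groups. In the controls *Gclc* had the highest mean FPKM, followed by *Srxn1* (201 ± 86.7 FPKM), *Osgin1* (166 ± 70.8), *Cat* and *Txnrd1* (125 ± 37.0), and each of these neighbours overlapped. *Gsr* and *Gclm* (47.1 ± 5.55 FPKM), which overlapped, and *Keap1* and *Nfe2l2*, which overlapped, came next, and *Nqo1* lay below them. In the Δli-labelled livers *Cat* came first and stood clear of *Srxn1* (206 ± 40.4 FPKM), and *Gclc* came in the third place, overlapping with *Srxn1* above it and *Osgin1* (135 ± 24.3) below it. *Txnrd1* (91.6 ± 4.07 FPKM), *Gclm* (51.6 ± 2.15) and *Gsr* followed without overlap, and *Gsr* overlapped with *Nfe2l2*. The SDs are over 3 livers.

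The coefficient of variation was larger in the controls than in the Δli-labelled livers in 9 of these 10 genes, and in 72.7% of the 11932 genes tested that were detected in both groups. In the controls it was 92.0% for *Nqo1*, 43.2% for *Srxn1*, 42.8% for *Osgin1* and 35.2% for *Gclc*, against 21.7%, 19.6%, 18.0% and 28.4% in the other group. *Gsr* was the exception, at 10.5% in controls and 13.2% in Δli-labelled livers. Control replicate 2 was the highest of all 6 livers in 6 of the 10 genes (*Keap1*, *Gclc*, *Gsr*, *Txnrd1*, *Srxn1* and *Nqo1*), and it was the highest of 6 in 22.4% of all genes tested. It was the highest control in 8 of the 10 genes, against 31.3% of all genes tested.

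**Figure D4:**
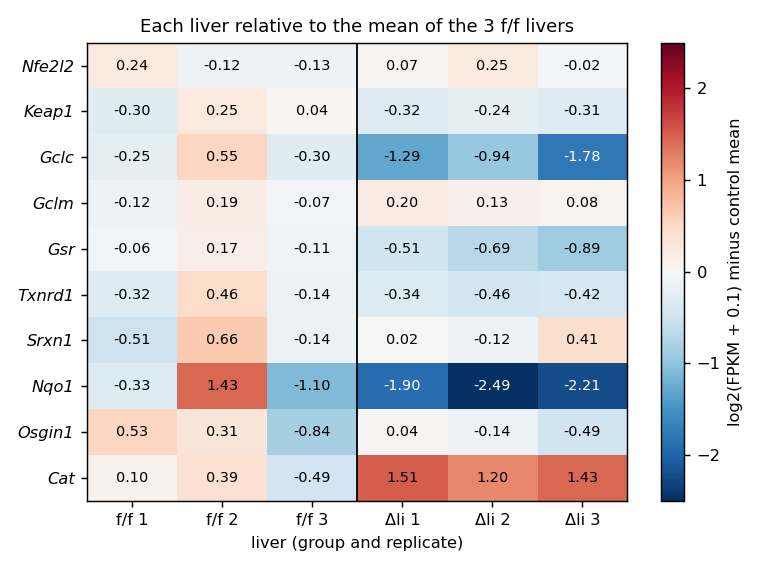
Log2(FPKM + 0.1) of the 10 genes (rows) in each liver (columns) after subtraction of the mean of the 3 *med23* f/f livers, on a colour scale from −2.5 (blue) to 2.5 (red) with the value in each cell. Control replicate 2 lies above the control mean in 9 rows, up to 1.43 for *Nqo1*. Every *med23* Δli column lies below the control mean for *Keap1*, *Gclc*, *Gsr*, *Txnrd1* and *Nqo1* and above it for *Gclm* and *Cat*.

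Genes that act on NRF2 or with it were taken from a list of 10, all of which passed the filter. 4 of them were higher and 0 lower at an adjusted p under 0.05 (limma), beside 11.6% higher and 9.48% lower among all genes tested, and 5 were higher and 0 lower at an unadjusted p under 0.05. The median log2 fold change of the list was 0.67. *Mafg*, a small MAF partner of NRF2, rose from 18.5 ± 6.69 to 31.8 ± 1.62 FPKM (log2 fold change 0.84, adjusted p = 0.0403, limma). *Sqstm1*, whose product p62 binds KEAP1 and is itself an NRF2 target, rose from 745 ± 124 to 1277 ± 109 FPKM (log2 fold change 0.79, adjusted p = 0.0169, limma). *Cul3*, the scaffold of the ligase that degrades NRF2, rose by 0.72 on the log2 scale (adjusted p = 0.0331, limma), and *Gsk3b*, a kinase that marks NRF2 for degradation, by 0.74 (adjusted p = 0.0478, limma). The count of 4 fell to 1 without control replicate 1, control replicate 2 or *med23* Δli replicate 3, and to 0 without *med23* Δli replicate 1 or replicate 2, and it rose to 7 without control replicate 3. It was 2 with quantile normalization, 2 with eBayes without trend, 1 without the filter on low values and 1 with the replicate block. *Sqstm1* was not called when *med23* Δli replicate 1 (adjusted p = 0.0701, limma) or replicate 2 (0.0629, limma) was left out, with a lowest adjusted p of 0.00827 over the alternatives.

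A list of 24 other genes that respond to NRF2 in mouse liver split in direction. All were tested, 5 were higher and 4 lower, beside 11.6% and 9.48% of all genes tested, and the median log2 fold change was −0.10. Among the risers were a transporter of cystine and a pair of export pumps. *Slc7a11*, the cystine importer that supplies glutathione synthesis, had 0.378, 0.347 and 0.761 FPKM in the controls and 6.92, 2.04 and 8.17 FPKM in the Δli-labelled livers, a log2 fold change of 3.13 (standard error 0.51, adjusted p = 0.00780, limma). Its lowest value of that group exceeded the highest control, and the log2 fold change was 3.74 without *med23* Δli replicate 2, the lowest of them, and 2.02 with a pseudocount of 1. The control mean of *Slc7a11*, 0.495 FPKM, lay under 0.5 FPKM, so it passed the filter only through the Δli-labelled livers. It was also called without the filter. *Abcc4*, an efflux pump for organic anions, rose from 1.26 ± 0.421 to 10.1 ± 1.68 FPKM (log2 fold change 2.94, or 2.31 with a pseudocount of 1, adjusted p = 0.000918, limma). *Abcc2*, which exports conjugates and glutathione into bile, rose from 15.6 ± 2.23 to 56.3 ± 11.9 FPKM (log2 fold change 1.83, adjusted p = 0.00173, limma).

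The genes of this list that fell were enzymes that act on carbonyls, electrophiles and sugars. *Gsta4*, a glutathione transferase for lipid peroxidation products such as 4-hydroxynonenal, fell from 96.9 ± 64.3 to 12.4 ± 7.13 FPKM (log2 fold change −2.86, adjusted p = 0.0132, limma). The carbonyl reductase genes *Cbr3* and *Cbr1* fell by 2.37 (1.69 with a pseudocount of 1; adjusted p = 0.0245, limma) and by 1.48 (adjusted p = 0.00770, limma) on the log2 scale. The call of *Cbr3* was lost without the filter (0.0558, limma) and without any 1 of the Δli-labelled livers (0.0655 to 0.0809, limma). Members named outside the rule, after their values were seen, are *Hmox1*, haem oxygenase 1, which rose from 33.0 ± 1.27 to 49.9 ± 3.19 FPKM (log2 fold change 0.59, adjusted p = 0.0150, limma), *Gstm2* (1.30, adjusted p = 0.00514, limma) and *Ugdh* (−0.80, adjusted p = 0.0317, limma). The call of *Hmox1* was lost without *med23* Δli replicate 1 (0.0814, limma) or replicate 2 (0.0688, limma; from 0.0137 over the alternatives). The call of *Ugdh* was lost without any 1 liver other than control replicate 3 and without the filter, and that of *Gstm2* was kept throughout. *Gsta1*, *Gsta2*, *Gstp1* and the *Gstm* genes have near-identical copies, and reads may be split between them. Control replicate 2 was the highest liver in 15 of the 24 genes. Without it 7 were higher and 3 lower, with *Gsta4* at −2.35 and *Cbr3* at −1.65. The number that rose was 4 without *med23* Δli replicate 1 or replicate 2. The number that fell was 2 without *med23* Δli replicate 1 or replicate 2, 1 without replicate 3 of that group and 7 without control replicate 3, and *Cbr1* was called under all alternatives.

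Of 14 genes of glutathione supply and use, *Ggt1* lay under the filter (at most 0.192 FPKM), and of the 13 tested 1 was higher and 1 lower, beside 21.1% called in either direction among all genes tested. *Cth*, cystathionine gamma-lyase, makes cysteine for glutathione and rose from 47.9 ± 5.82 to 135 ± 24.0 FPKM (log2 fold change 1.48, standard error 0.17, adjusted p = 0.00276, limma). *Glrx*, glutaredoxin, fell from 71.5 ± 15.8 to 46.0 ± 1.64 FPKM (log2 fold change −0.61, adjusted p = 0.0386, limma), but the call was lost without control replicate 2 and without any 1 of the Δli-labelled livers. It was also lost without the filter, with eBayes without trend and with the replicate block. *Cth* was called under every alternative, and the number of higher genes was 2 without control replicate 2 or *med23* Δli replicate 2.

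Of 11 thioredoxin and peroxiredoxin genes, all tested, 2 were higher and 0 lower (limma), beside 21.1% called in all among the genes tested, and at an unadjusted p 4 were higher and 1 lower. *Txn2*, the mitochondrial thioredoxin, rose from 178 ± 17.4 to 302 ± 33.1 FPKM (log2 fold change 0.76, adjusted p = 0.0120, limma), and *Prdx1*, a cytosolic peroxiredoxin, rose from 692 ± 126 to 1065 ± 98.7 FPKM (log2 fold change 0.63, adjusted p = 0.0369, limma). Neither was called without *med23* Δli replicate 1 or replicate 2, nor *Prdx1* without *med23* Δli replicate 3 or control replicate 2 or 3. Of 4 superoxide dismutase genes, to be read beside the same 21.1%, *Sod3*, the extracellular enzyme, fell from 22.2 ± 0.752 to 14.0 ± 2.58 FPKM (log2 fold change −0.68, adjusted p = 0.0236, limma), and 0 were higher, with 1 at an unadjusted p. The call of *Sod3* was lost without control replicate 1 or 2 and without *med23* Δli replicate 2 or 3.

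Among 8 genes of the pentose phosphate pathway and of other NADPH-producing enzymes, 2 were higher (11.6% of all genes tested) and 1 lower (9.48%). *G6pdx*, the first enzyme of the pentose phosphate pathway, had 10.9, 29.0 and 11.5 FPKM in the controls and 4.66, 5.56 and 3.89 FPKM in the Δli-labelled livers. Its groups did not overlap, and control replicate 2 was again the highest. On the log2 scale *G6pdx* differed by −1.70 (adjusted p = 0.0171, limma), and by −1.25 without control replicate 2, and the call was lost without *med23* Δli replicate 1 (0.0585, limma) or replicate 3 (0.0669, limma; from 0.00908 over the alternatives). *Taldo1*, transaldolase of the same pathway, makes no NADPH itself and rose by 0.71 on the log2 scale (adjusted p = 0.0347, limma). *Me1*, malic enzyme, rose by 0.49 on that scale (adjusted p = 0.0338, limma). Both calls were lost without any 1 of the Δli-labelled livers, and that of *Me1* also without control replicate 2.

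**Figure D5:**
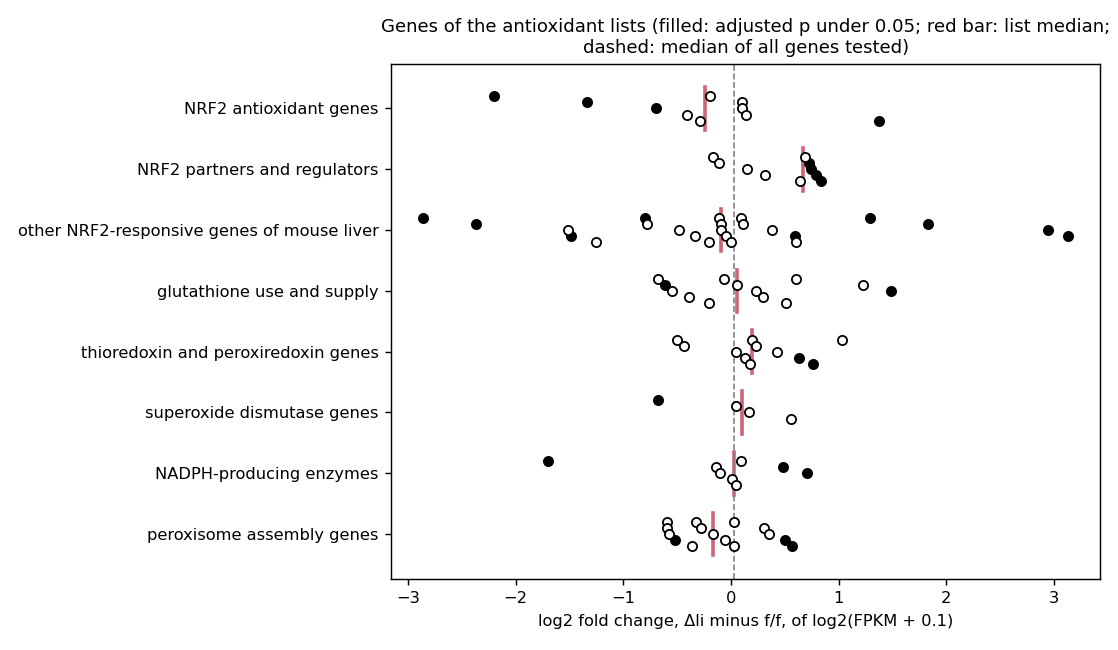
Log2 fold change (horizontal axis, *med23* Δli minus *med23* f/f on the log2(FPKM + 0.1) scale) of each tested gene of the 10 NRF2 antioxidant genes and of 7 related lists (rows), with filled points at an adjusted p under 0.05, a red bar at the median of each list and a dashed line at the median of all genes tested (0.02). The 24 other NRF2-responsive genes run from −2.86 (*Gsta4*) to 3.13 (*Slc7a11*). The row of NADPH-producing enzymes also holds *Taldo1*, *Tkt* and *Pgls*, pentose phosphate genes whose products make no NADPH.

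Markers of liver cell types moved with the groups in part. All 5 endothelial markers were called lower in Δli-labelled livers, beside 9.48% of all genes tested. Their summed level was 38.5 to 41.4 FPKM against 73.6 to 110 FPKM in the controls. Of 5 tested markers of pericentral hepatocytes 3 were called higher, beside 11.6% of all genes tested. The 6 on the list summed to 797 to 957 FPKM against 376 to 515 FPKM in the controls. *Cyp2e1*, the cytochrome P450 that activates CCl4, had 184, 243 and 336 FPKM in controls and 595, 617 and 559 FPKM in Δli-labelled livers. Of the macrophage, neutrophil, cholangiocyte and hepatocyte markers 0 were called (limma), with 1, 1, 0 and 3 at an unadjusted p. Of 6 stellate cell markers 1 was called lower, with 1 higher and 2 lower at an unadjusted p. These counts are to be read beside the 21.1% of all genes tested called in either direction. The stellate call was lost without any 1 liver other than control replicate 3, without the filter, with eBayes without trend, with robust eBayes and with the replicate block. Without any 1 liver other than control replicate 3 the pericentral count was 2, and the endothelial count was 4 to 5 with each liver left out. Without the filter the pericentral count was 2 and the endothelial count 4. The summed levels of macrophage markers were 226 to 267 FPKM in controls and 235 to 261 FPKM in Δli-labelled livers, and those of hepatocyte markers overlapped as well. Of 6 T and B cell markers 0 passed the filter. Of 4 red blood cell markers tested 1 was called higher, *Hba-a1*, which passed the filter only through the Δli-labelled livers (control mean 0.00113 FPKM). That call was lost under several alternatives, such as a pseudocount of 1. In whole liver, fewer cells of a type and less RNA per cell cannot be told apart. Whether these shifts have a part in the values of the NRF2 antioxidant genes was not tested.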

How the data were processed

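Total RNA of whole liver was sequenced in paired reads of 6 mice in the 2 groups. The authors trimmed adapters, aligned reads with TopHat (build UCSC mm10) and took the deposited FPKM per library from Cuffdiff. Tool versions, annotation and strand setting are not given in the sources used here. The table also holds the fold changes, p-values and calls of the authors, which were not used. FPKM values keep no read counts, so depth per library is unknown and the spread between livers is the only error.

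FPKM were compared as log2(FPKM + 0.1) with limma 3.58.1 in R 4.3.3 (eBayes with a mean-variance trend, no replicate block), for 11956 genes averaging 0.5 FPKM or more, with Benjamini-Hochberg adjustment over all of them. Single values had an exact permutation test. The limma fit was tested on simulated data for this comparison over 11956 genes: of 100 genes changed by 1.5 on the log2 scale 98 were recovered, and of 100 changed by 2 also 98, with 9 unchanged genes called. The changed genes were drawn only from those with a mean log2 value above 2, with normal spread equal in both groups. In the data the controls varied more in 72.7% of genes, so the recovered share does not carry over to these livers or to lower genes. The limma p-values set the difference between the groups against the spread between livers within a group, moderated over all genes tested.

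The 10 genes and the lists were chosen with earlier results of these data known. Named are all 10 genes and, of each list, up to 6 called genes by size of change. Tried as alternatives were a pseudocount of 1 or 0.01, leaving out the filter or raising it to 1 FPKM, median centring, quantile normalization, eBayes without trend, robust eBayes, the replicate block, a 2-fold threshold and leaving out each library. Replicate numbers are shared by the groups, but same-numbered livers did not deviate together (correlations of −0.02, −0.05 and −0.12). Gene positions are from GENCODE mouse release M 21 (GRCm38, the assembly of mm10), and promoter sequences from RefSeq. Other steps ran in Python 3.11.15 (scipy 1.17.1 for the exact tests).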

Additional observations from a re-analysis of the deposited data

How the results depend on the processing

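Of the 10 NRF2 antioxidant genes, 1 was called higher under all settings, and it was *Cat* each time. The number of NRF2 antioxidant genes called lower was 3, and with each liver left out in turn it ranged from 0 (without *med23* Δli replicate 3, where 3 remained lower at an unadjusted p) to 4 (limma). Over all genes tested the counts were 1384 higher and 1133 lower. They were 809 and 614 with the replicate block, 532 and 412 at more than 2-fold, and 401 to 1750 and 349 to 1429 with each liver left out. The sources used here do not say whether the replicate numbers pair animals. The block changed no call of the 10 genes, while 9 of the 24 other genes called in the lists lost theirs. With the block the count of NRF2 partners called higher was 1 in place of 4. The log2 fold change of *Srxn1* was −0.011 with quantile normalization and −0.16 to 0.43 with each liver left out, and that of *Osgin1* was −0.62 to 0.065 with each liver left out. The difference between the groups in the log2 ratio of *Gclm* to *Gclc* was 1.28 to 1.68 with each liver left out. Of 150 comparisons of the 10 genes with an alternative, 135 kept direction and side of the threshold. Of the 24 other called genes, 15 to 16 lost the call without any 1 liver labelled *med23* Δli, and all kept their direction. Causes were not tested.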

Other observations

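Catalase works in peroxisomes, and 15 genes of peroxisome assembly were examined beside the rise of *Cat*. All 15 were tested, 2 were higher and 1 lower (limma, adjusted p under 0.05), a share near the 21.1% of all genes tested, and their median log2 fold change was −0.17. *Pex5*, which carries catalase into the peroxisome, fell from 61.4 ± 2.86 to 42.8 ± 2.67 FPKM (SD, n = 3 each; log2 fold change −0.52, adjusted p = 0.0227, limma). *Pex14*, its docking partner at the membrane, rose from 37.5 ± 1.88 to 53.2 ± 6.05 FPKM (log2 fold change 0.50, adjusted p = 0.0355, limma), and *Pex26* rose from 6.86 ± 0.580 to 10.2 ± 1.18 FPKM (log2 fold change 0.56, adjusted p = 0.0310, limma). The groups did not overlap in 7 of the 15 genes, near the 43.7% of all genes tested. All 3 calls were lost without any 1 of the livers labelled *med23* Δli and with the replicate block. Without control replicate 1 *Pex14* (adjusted p = 0.0564, limma) and *Pex26* (0.0515, limma) lost theirs, as did *Pex14* without control replicate 2 (0.0713, limma) and with eBayes without trend (0.05005, limma).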
